A study of Homo sapiens with 12 samples.

Results

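Neuroendocrine secretory granule genes encode the cargo, enzymes and chaperones of the dense-core granule, the storage organelle from which neurons and endocrine cells release peptides on demand. The group described here holds 10 genes of the 58174 in each deposited table: the granins SCG2, SCG3, CHGA and CHGB, the related precursor VGF, the chaperone SCG5, the convertases PCSK1 and PCSK2, the carboxypeptidase CPE, and NMU, which encodes the peptide neuromedin U. The genes were listed by symbol and matched to Ensembl identifiers, and they were chosen by their TPM differences between control and aggregation libraries of these same data. The values of the 10 genes are therefore given as a description, without p-values.

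U87 and U118 are long-established cultures of human glioblastoma, and TMZ (temozolomide) is the alkylating drug given against this tumour. mRNA-seq was made from 4 groups of 3 libraries: control U87 cells, U87 aggregation cells, control U118 cells and U118 aggregation cells. Per the study's text, the starting cells were sorted as CD133-CD15- and kept in medium with fetal bovine serum and BMP2. Aggregation cells are the rare clusters that formed from these cells after exposure to TMZ. The paper reports higher CD133 and CD15 in aggregation cells than in control cells, by flow cytometry and western blot. The libraries here measure RNA. TMZ was at 50 μM for the aggregation libraries of both lines. The labels call control cells sensitive and aggregation cells resistant. Each line is a single cultured line, only a few aggregations formed from a very large number of cells, and nothing in the sources says that the 3 libraries of a group came from separate cultures, so the p-values given for other genes measure only the spread between libraries, which may be technical. The values are TPM, in which expression is divided by transcript length and all libraries sum to 1 common total. No read counts are kept, so depth and detection limits are unknown. Errors given with TPM means are SDs over 3 libraries, and errors given with differences of log2(TPM + 1) are SEs of the fit.

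A granin is packed into a forming granule with the enzymes that will cut it. PCSK1 and PCSK2 cleave peptide precursors after basic residues, CPE removes those residues from the new ends, and SCG5 keeps PCSK2 from becoming active too early. The genes are best known from endocrine cells and neurons, where cAMP signalling and the repressor REST are among their known regulators, and neuromedin U acts on smooth muscle and on feeding through the receptors NMUR1 and NMUR2.

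The libraries labelled U118 resistant stood closer to U87 than to their own control. Over the 16382 genes at 1 TPM or more in at least 3 libraries, the Spearman rank correlation of each of them with the U118 control libraries was 0.808 to 0.839, against 0.895 to 0.909 with U87 control libraries and 0.907 to 0.913 with U87 aggregation libraries. Within a group the rank correlation was 0.960 to 0.988. The first U118 aggregation library stood apart from the rest of its group, with 15193 genes at 1 TPM or more against 13270 and 13545, and with 13.2% of its TPM in mitochondrially encoded genes against 29.9% and 26.1%. The third U118 control library also differed from its group in this share, at 19.7% against 7.42% and 8.55%. In U87 the share was 22.2% to 23.7% in aggregation and 12.9% to 16.9% in control libraries. Whether the cells of the U118 aggregation libraries were U118 cells that had changed or other cells cannot be told apart from these values. Every U118 difference below is therefore one between libraries with these labels.

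Markers of neurons and neuroendocrine cells were present in part. Of 21 such markers, 12 stayed under 1 TPM in all 12 libraries, among them PHOX2A, listed at 0 throughout, and the other 9 reached 1 TPM in at least 1 library. ENO2, the neuronal enolase, was at 331 to 384 TPM in U87 control, 276 to 308 in U87 aggregation, 51.9 to 73.3 in U118 control and 111 to 185 in U118 aggregation libraries. NCAM1, a neural adhesion molecule, was at 3.02 to 17.3 TPM over all libraries, and SYP, a vesicle membrane protein, was at 8.43 to 11.8 TPM in U118 aggregation libraries and under 1 TPM in the others. The most abundant marker was UCHL1, a ubiquitin hydrolase, at 1783 ± 70.5 TPM in U87 control, 901 ± 66.2 in U87 aggregation, 27.0 ± 2.22 in U118 control and 810 ± 170 in U118 aggregation cells (SD, n = 3). Of 14 glial markers 7 stayed under 1 TPM in every library, among them GFAP, SOX2 and S100B. Of the others, the intermediate filament genes VIM and NES were present in all libraries, NES at 5.76 to 24.1 TPM, while ALDH1L1 was at 20.0 to 24.1 TPM in U87 control libraries and OLIG2 at 1.45 to 4.45 TPM in U87 libraries.

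The promoters of VGF and NMU are shown because these genes carry large differences and have an entry in the promoter table, and a shorter stretch of PCSK1 because it shares the VGF motif. The sequences are from RefSeq, build GRCh38.p14, minus strand, and capitals mark TGACGTCA, the cAMP response element. The VGF and NMU stretches run from 150 to 31 bases before the RefSeq start, at chr7:101165600-101165719 and chr4:55636824-55636943, and the PCSK1 stretch of 30 bases lies at chr5:96433307-96433336.
VGF: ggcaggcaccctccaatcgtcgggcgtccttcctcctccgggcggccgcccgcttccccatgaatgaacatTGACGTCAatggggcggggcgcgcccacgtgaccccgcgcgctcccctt
PCSK1: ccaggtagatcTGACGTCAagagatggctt
NMU: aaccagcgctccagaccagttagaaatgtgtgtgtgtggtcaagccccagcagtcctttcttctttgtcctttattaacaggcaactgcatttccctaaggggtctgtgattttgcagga

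Of the 10 genes, 8 had a promoter in the table, with 10 starts in all, and SCG2 and CHGB had none. TGACGTCA, which reads the same on both strands, was found within 250 bases before the start of VGF (79 bases before it), CHGA (54 bases) and 1 of 2 starts of PCSK1 (77 bases). Among all 35116 promoters searched, 1.65% held it. The shorter TGACG, which TGACGTCA contains, was in 21.2% of them, searched on both strands, and TATAAA, also searched on both strands, was in 10.7%. VGF had a match to TATAAA 32 bases before its start, but on the opposite strand, so that its own strand reads TTTATA. The other PCSK1 start had a match 28 bases before it, whose strand was not recorded. NMU had none of the 3 motifs. A match is a description of the letters in the window and not evidence of a bound factor.

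SCG2, on chromosome 2 (chr2:223596940-223602503, minus strand, GENCODE release 29), encodes secretogranin II, the precursor of the peptide secretoneurin. It was listed at 0.202, 0.463 and 0.309 TPM in the U87 control libraries and at 56.3, 50.5 and 52.5 TPM in the U87 aggregation libraries. The means were 0.325 ± 0.132 and 53.1 ± 2.94 TPM (SD, n = 3), a ratio of 164, and the groups lay far apart with a tight spread in aggregation cells. The difference of log2(TPM + 1), a scale that compresses changes from such a low level, was 5.36 ± 0.14 (SE), the largest among the genes of this group.

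In U118 cells the same gene stayed low. Control libraries were at 0.116, 0.267 and 0.499 TPM and aggregation libraries at 2.98, 0.324 and 0.266 TPM. The groups overlapped, and the higher aggregation mean of 1.19 ± 1.55 TPM came from the first library, the one that stands apart. SCG2 did not pass the filter of 1 TPM in at least 3 of the 6 U118 libraries, and was not fitted there.

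VGF, on chromosome 7 (chr7:101162509-101165593, minus strand), encodes a precursor cut into several secreted peptides and was first known as a nerve growth factor inducible gene. Its pattern was the other way round between the lines. In U118 control libraries it was at 0.986, 1.08 and 0.828 TPM, and in the aggregation libraries it was at 17.5, 31.2 and 22.1 TPM. All 3 aggregation libraries were above all 3 control libraries, with means of 0.966 ± 0.129 and 23.6 ± 6.99 TPM (SD, n = 3), a ratio of 24.4 and a difference of 3.61 ± 0.26 (SE) on the log2(TPM + 1) scale.

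In U87 cells VGF was high in both groups. Control libraries held 28.9, 38.4 and 30.2 TPM and aggregation libraries 32.2, 28.6 and 21.0 TPM, and the groups overlapped, with a difference of -0.26 ± 0.18. The U118 aggregation level of VGF thus lay beside the U87 levels, although the lines were deposited in separate tables and levels set across them share only the TPM scale.

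NMU, on chromosome 4 (chr4:55595229-55636698, minus strand), was lower in the aggregation libraries of both lines. U87 control libraries were at 8.18, 13.1 and 10.8 TPM, while the U87 aggregation libraries were at 0.124, 0 and 0 TPM. U118 control libraries were at 3.49, 2.67 and 1.57 TPM, and the U118 aggregation libraries at 0.453, 0 and 0 TPM. In neither line did the groups overlap, and in each line 2 of 3 aggregation libraries listed the gene at 0. The differences were -3.47 ± 0.19 in U87 and -1.62 ± 0.25 in U118 cells on the log2(TPM + 1) scale, which depend on the pseudocount because of the zeros.

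The receptors of neuromedin U were at or near 0. NMUR1 was listed at 0 in all 12 libraries. NMUR2 was at 0.911, 1.17 and 1.24 TPM in the U118 control libraries and listed at 0 in the other 9 libraries.

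**Figure D1:**
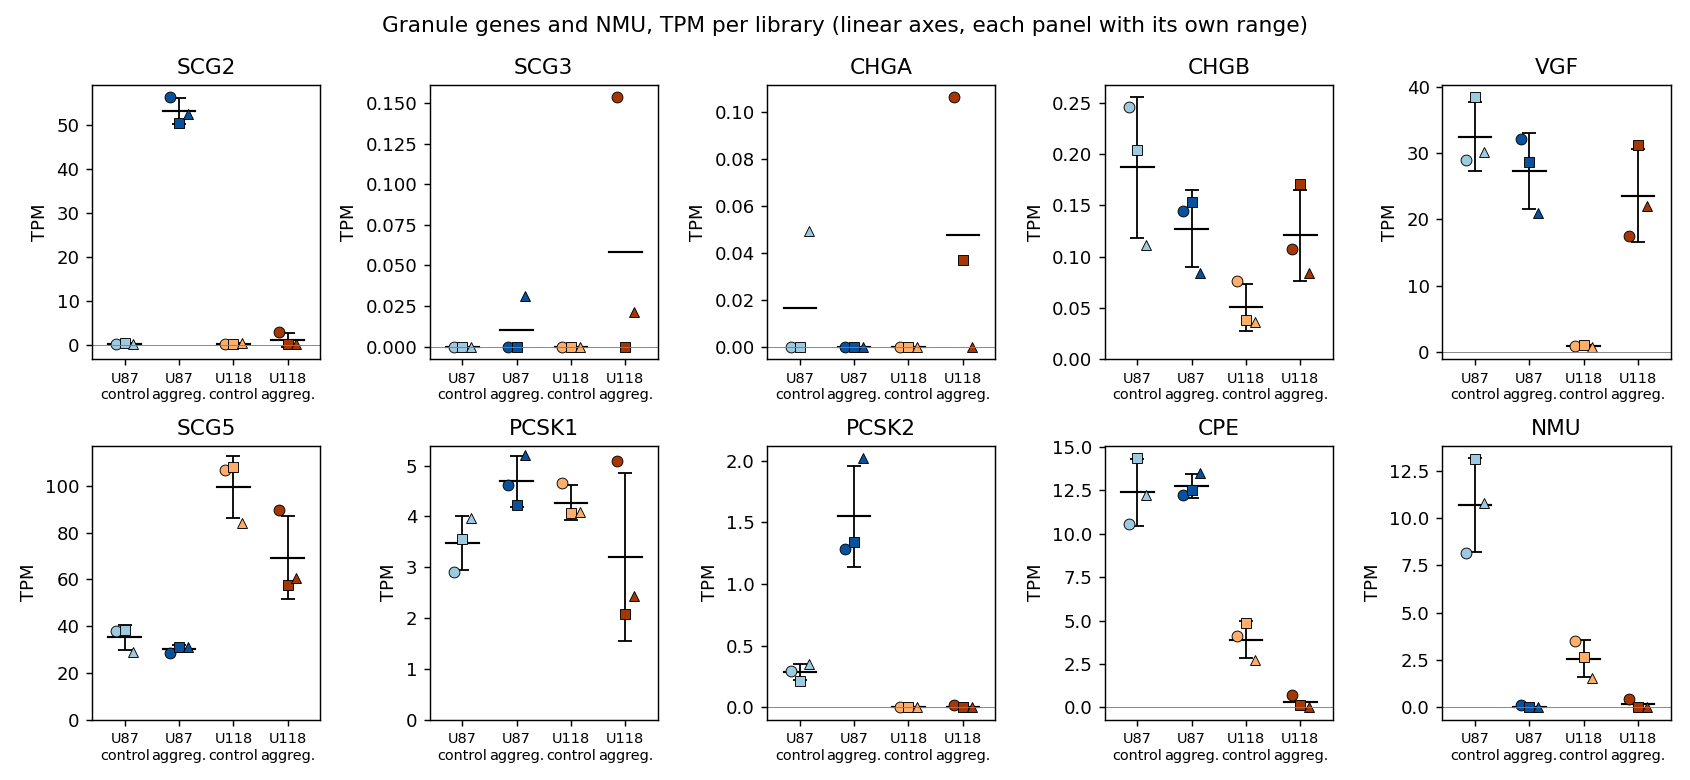
TPM of each of the 10 genes in the 12 libraries, 1 panel per gene with its own linear axis from 0; points are libraries, horizontal lines are group means, and bars are SDs over 3 libraries, left out where a library of the group is listed at 0. SCG2 stands at 50.5 to 56.3 TPM in U87 aggregation libraries only, VGF is near 1 TPM only in U118 control libraries, and NMU is near 0 in the aggregation libraries of both lines.

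The other granins were close to the floor of the tables. SCG3, which binds chromogranin A at the granule membrane, was listed above 0 in 3 libraries of 12, at no more than 0.154 TPM. CHGA, encoding chromogranin A, was above 0 in 3 of 12 at no more than 0.106 TPM. CHGB, encoding chromogranin B, was above 0 in every library but reached only 0.246 TPM. Its U118 groups did not overlap, at 0.0361 to 0.0765 TPM in control and 0.0845 to 0.171 TPM in aggregation libraries, yet at such levels without read counts no difference can be read from it. These 3 genes passed the filter in neither line.

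PCSK2, which encodes the convertase that SCG5 guards, was higher in the same U87 libraries as SCG2, at a much lower level. It was at 0.291, 0.215 and 0.348 TPM in control and at 1.28, 1.34 and 2.02 TPM in aggregation libraries, with no overlap and a ratio of means of 5.43. The difference was 0.98 ± 0.15 on the log2(TPM + 1) scale, just under the size of 1 that a call required, and it passed that size with a smaller pseudocount. In U118 cells PCSK2 was listed at 0 in 5 of 6 libraries and at 0.0157 TPM in the first aggregation library.

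PCSK1, the convertase of the early granule, varied little. U87 control libraries were at 2.91, 3.55 and 3.97 TPM and aggregation libraries at 4.63, 4.23 and 5.21 TPM, which did not overlap but differed by only 0.35 ± 0.16 on the log2(TPM + 1) scale. U118 control libraries were at 4.66, 4.07 and 4.09 TPM and aggregation libraries at 5.09, 2.08 and 2.43 TPM, which overlapped because of the first aggregation library.

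SCG5, the chaperone, was the most abundant gene of the group in 8 of the 12 libraries, the exceptions being the 3 U87 aggregation libraries, where SCG2 was higher, and the third U87 control library, where VGF was. It was at 37.8, 38.6 and 29.2 TPM in U87 control and 28.6, 31.3 and 31.0 TPM in U87 aggregation libraries. U118 control libraries were at 107, 108 and 84.1 TPM and U118 aggregation libraries at 89.8, 57.6 and 60.6 TPM. The groups overlapped in both lines, with differences of -0.20 ± 0.13 in U87 and -0.54 ± 0.24 in U118 cells, both of which turned slightly positive (0.06 and 0.02) when libraries were scaled by median ratios. An antisense gene, AC123768.1, overlaps its exons and was at 1.52 TPM or less, and no other gene of the group has an exon shared with another annotated gene.

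CPE, the carboxypeptidase, separated the lines. U87 control libraries were at 10.5, 14.4 and 12.3 TPM and U87 aggregation libraries at 12.2, 12.5 and 13.5 TPM, a difference of 0.05 ± 0.14 with overlapping groups. U118 control libraries were at 4.08, 4.86 and 2.73 TPM and U118 aggregation libraries at 0.724, 0.126 and 0 TPM. Every U118 aggregation library was below every U118 control library, and the difference was -1.95 ± 0.27 on the log2(TPM + 1) scale.

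Of the 10 genes, 7 passed the filter in U87 and 5 in U118 cells. The call required a Benjamini-Hochberg adjusted p under 0.05 with limma and a log2 difference of at least 1. In U87 cells 1 gene was called higher (SCG2), beside 3.03% of the 13845 genes tested, and 1 lower (NMU), beside 7.79%. In U118 cells 1 was called higher (VGF), beside 8.64% of the 15527 genes tested, and 2 lower (CPE and NMU), beside 26.6%. These contrasts were in view when the genes were chosen, so nothing is read from the counts. The groups did not overlap for 4 genes in each line, NMU, SCG2, PCSK1 and PCSK2 in U87 and VGF, CHGB, CPE and NMU in U118 cells, where 53.4% and 58.6% of all genes tested did not overlap. The median difference of all genes tested was -0.25 in U87 and -0.52 in U118 cells, and that of the genes that passed the filter was 0.05 and -0.54.

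The order of the genes by level differed between groups. In U87 control cells SCG5 and VGF led at 35.2 ± 5.23 and 32.5 ± 5.15 TPM, which do not differ beyond their spread, followed by CPE at 12.4 ± 1.91 and NMU at 10.7 ± 2.47 TPM, also within their spread, and then PCSK1 at 3.47 ± 0.534 TPM (SD, n = 3). In U87 aggregation cells SCG2 led, SCG5 (30.3 ± 1.45 TPM) and VGF (27.3 ± 5.70 TPM) again stood within their spread, and CPE followed at 12.8 ± 0.672 TPM. In U118 control cells SCG5 was alone at 99.5 ± 13.4 TPM, and PCSK1 (4.27 ± 0.335 TPM), CPE (3.89 ± 1.08 TPM) and NMU (2.58 ± 0.965 TPM) followed. In U118 aggregation cells SCG5 (69.3 ± 17.8 TPM) and VGF led, and PCSK1 came next at 3.20 ± 1.65 TPM.

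The summed TPM of the 10 genes was 87.1 to 109 in U87 control, 125 to 135 in U87 aggregation, 93.9 to 121 in U118 control and 85.4 to 117 in U118 aggregation libraries. Only the U87 groups were apart, and SCG2 made up 50.5 to 56.3 TPM of the U87 aggregation sums. In bulk libraries fewer cells of a kind and less RNA per cell cannot be told apart.

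**Figure D2:**
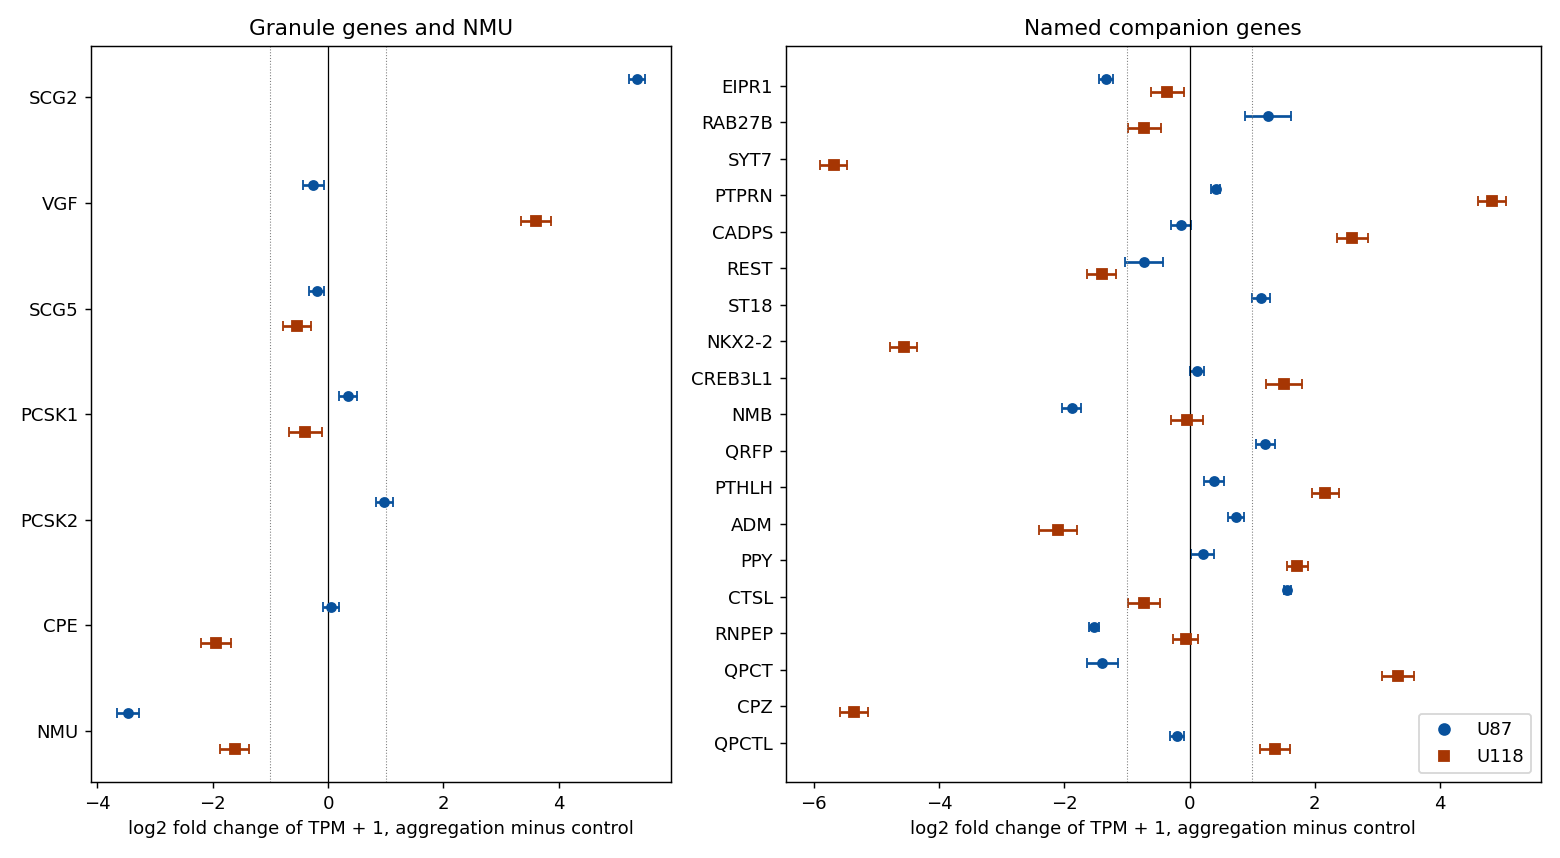
Difference of log2(TPM + 1), aggregation minus control, in U87 (circles) and U118 (squares) with its SE as bars, for the genes of the group that passed the filter (left) and for named genes of the companion lists (right); dotted lines mark a difference of 1 in size, and genes below the filter in a line have no point. SCG2 at 5.36 in U87 and VGF at 3.61 in U118 are each far from 0 in 1 line, while NMU is below 0 in both.

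Where U118 aggregation libraries came to lie nearer to U87, the genes of the group took part unevenly. Of all genes whose U118 and U87 control means differed by at least 1 on the log2(TPM + 1) scale, 74.4% (4503 of 6054) were nearer to the U87 control mean in the U118 aggregation libraries. Of the group, 4 genes differed that much, and VGF was nearer to U87 while SCG5, CPE and NMU were nearer to U118 control. CPE and NMU had fallen below U118 control, away from the higher U87 control levels, so their nearness does not mean that they stayed at the U118 level. With the U87 aggregation mean as the reference, 74.8% of all such genes (5382 of 7200) and 2 of 6 of the group (VGF and NMU) were nearer to U87, and SCG2, SCG5, PCSK2 and CPE were not. These shares set levels from separately deposited tables side by side.

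Markers of other cells also differed between control and aggregation libraries. Of 7 tested neuronal and neuroendocrine markers, 4 were called higher in U118 aggregation than control cells (SYP by 2.98, ENO2 by 1.04, UCHL1 by 4.84 and GAP43 by 3.42 on the log2(TPM + 1) scale) and none lower. Their summed TPM was 134 to 203 in U118 control and 861 to 1319 in U118 aggregation libraries. In U87 cells 1 of 6 was called lower (NCAM1) and none higher. The sum was 2166 to 2335 in U87 control cells against 1171 to 1296 in U87 aggregation cells, and UCHL1 made up most of it. SCG2 was high in the U87 group with the lower sum, but it was low in U118 control libraries, where the sum was lowest. Of 14 glial markers 1 was called lower in each line (ALDH1L1 in U87, FUT4 in U118) and none higher, with AQP4 at 0 throughout and sums of 4687 to 4771, 5028 to 5943, 5874 to 6170 and 4440 to 7184 TPM in U87 control, U87 aggregation, U118 control and U118 aggregation libraries. Of 8 blood and endothelial markers CSF1R was called higher in U118 cells and none was called in U87 cells, with sums of 292 to 345, 208 to 247, 173 to 318 and 311 to 389 TPM in the same order. The part of these markers in the differences of the granule genes was not tested.

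The rest of the pathway was followed in 5 lists with 163 further genes. In U87 cells 71 were tested, and 4 were called higher and 4 lower, with a median difference of -0.20. In U118 cells 76 were tested, and 11 were called higher and 12 lower, with a median of -0.26. Called genes make up 10.8% of all genes tested in U87 and 35.3% in U118 cells. Nearness to U87 was also counted for those of the 163 genes whose U118 control and U87 means differed by at least 1. In U118 aggregation libraries 20 of 40 were nearer to the U87 control mean and 26 of 39 to the U87 aggregation mean. The shares over all genes were 74.4% and 74.8%. p-values below are from limma with Benjamini-Hochberg adjustment over all genes tested.

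Of the 18 prohormone processing genes, 11 were tested in U87 cells (1 higher, 2 lower, median -0.21) and 13 in U118 cells (2 higher, 3 lower, median -0.65). CTSL, a protease of lysosomes that also cuts prohormones, rose from 185 ± 5.48 to 548 ± 14.9 TPM in U87 cells (1.56 ± 0.06, adjusted p = 2.58e-05). QPCT, which forms the pyroglutamate end of some peptides, fell from 8.57 ± 2.0 to 2.68 ± 0.956 TPM in U87 cells (-1.39 ± 0.24, adjusted p = 0.00459) and rose in U118 cells from 0, 0.0498 and 0.0702 TPM to 13.9, 7.56 and 7.79 TPM (3.32 ± 0.25, adjusted p = 1.11e-05). CPZ, a carboxypeptidase related to CPE, fell in U118 cells from 51.9 ± 6.37 to 0.286 TPM (-5.36 ± 0.23, adjusted p = 5.24e-07), in the same direction as CPE there. RNPEP, an aminopeptidase, fell in U87 cells (-1.52 ± 0.08, adjusted p = 6.93e-05), and QPCTL, the Golgi relative of QPCT, rose in U118 cells (1.36 ± 0.24, adjusted p = 0.00179).

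Of the 56 genes of granule assembly and exocytosis, 35 were tested in U87 cells (1 higher, 1 lower, median -0.18) and 37 in U118 cells (5 higher, 3 lower, median -0.12). PTPRN, a membrane protein of the granule, was at 301 ± 21.3 TPM in U87 control and 402 ± 7.39 in U87 aggregation libraries, and in U118 cells it rose from 0.0713, 0.0244 and 0.0180 TPM to 24.1, 30.0 and 32.1 TPM (4.83 ± 0.22, adjusted p = 8.25e-07). CADPS, which primes granules for fusion, rose in U118 cells from 1.13 ± 0.0952 to 12.1 ± 3.24 TPM (2.60 ± 0.25, adjusted p = 4.16e-05). SYT7, a calcium sensor of exocytosis, fell in U118 cells from 57.2 ± 3.50 TPM to 0.0664, 0.148 and 0.189 TPM (-5.68 ± 0.22, adjusted p = 3.38e-07).

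VGF, PTPRN and CADPS were thus higher in U118 aggregation cells, and SYT7 was lower. In U87 libraries CADPS was at 13.5 to 20.8 TPM and SYT7 at 0.116 to 1.75 TPM. The U118 aggregation levels of CADPS and SYT7 thus lay near those of U87, while PTPRN stayed far below its U87 level. In U87 cells EIPR1, a factor in the sorting of granule cargo, fell (-1.33 ± 0.11, adjusted p = 0.000225), and RAB27B, a GTPase of granule docking, rose (1.25 ± 0.37, adjusted p = 0.0345), a call that was lost when any of 5 of the 6 libraries was left out (adjusted p = 0.0738 to 0.108).

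Of the 65 precursors of peptide hormones and neuropeptides, 46 stayed under 1 TPM in all 12 libraries, 13 were tested in U87 cells (1 higher, 1 lower, median 0.19) and 15 in U118 cells (3 higher, 4 lower, median -0.05). NMB, the precursor of neuromedin B, which despite its name is no relative of NMU, fell in U87 cells from 18.1 ± 1.04 to 4.23 ± 0.780 TPM (-1.88 ± 0.15, adjusted p = 0.000218). ADM, the precursor of adrenomedullin, fell in U118 cells from 104 ± 30.2 to 23.6 ± 7.82 TPM (-2.09 ± 0.30, adjusted p = 0.000555). PTHLH, which encodes a parathyroid hormone related peptide, and PPY, the pancreatic polypeptide precursor, rose in U118 cells (2.17 ± 0.21, adjusted p = 5.36e-05, and 1.72 ± 0.17, adjusted p = 5.3e-05). QRFP, a precursor of an RFamide peptide, rose in U87 cells (1.21 ± 0.15, adjusted p = 0.00121). The list of neuromedin U receptors had no gene tested in either line.

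Of the 22 neuroendocrine and cAMP-responsive transcription regulators, 12 were tested in U87 cells (1 higher, none lower, median -0.22) and 11 in U118 cells (1 higher, 2 lower, median -0.66). REST, a repressor of neuronal genes outside the nervous system, fell in U118 cells from 6.96 ± 0.755 to 2.03 ± 0.526 TPM (-1.40 ± 0.23, adjusted p = 0.0012), a call that was lost under median-ratio scaling because the difference fell below 1 in size (-0.94, adjusted p = 0.0197). In U87 cells REST was at 3.33 ± 1.97 in control and 1.44 ± 0.144 TPM in aggregation libraries (-0.73 ± 0.30, adjusted p = 0.0977). The difference of REST between the lines was -0.67 (adjusted p = 0.188). NKX2-2, a factor of neuroendocrine lineages, was at 19.2, 23.0 and 26.3 TPM in the U118 control libraries and listed at 0 in the other 9, and was called lower in U118 cells. CREB3L1, a membrane-bound factor related to CREB, rose in U118 cells (1.51 ± 0.29, adjusted p = 0.00245), and ST18 rose in U87 cells (1.14 ± 0.15, adjusted p = 0.00127).

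**Figure D3:**
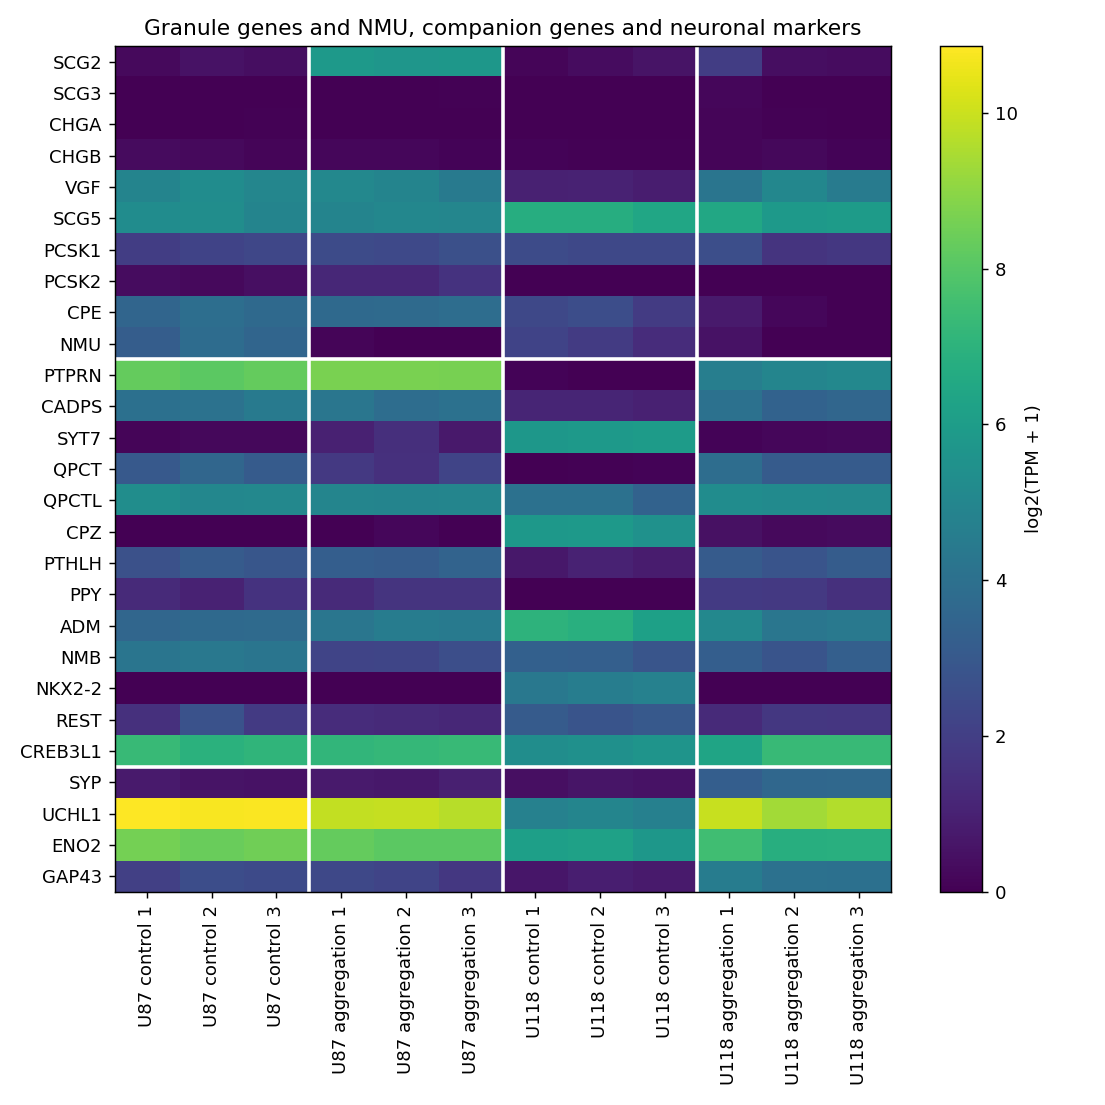
log2(TPM + 1) of the 10 genes (top block), of some named companion genes (middle) and of SYP, UCHL1, ENO2 and GAP43 (bottom) in each of the 12 libraries. These markers are the neuronal ones called higher in U118 cells, and white lines separate the groups. The companion genes CTSL, RNPEP, EIPR1, RAB27B, QRFP and ST18, named for U87, and the marker NCAM1, called lower in U87, are not drawn. SCG2 is brightest in the U87 aggregation libraries. VGF, PTPRN, CADPS and the neuronal markers drawn are darker in the U118 control than in the U118 aggregation libraries.

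The genes whose levels most resembled SCG2 and NMU over the 12 libraries were found by Pearson's r of log2(TPM + 1) among 12769 protein-coding genes, as a description in which the libraries share their cell line and group. For SCG2 these were TRPV6, a calcium channel (r = 0.991), MYO1F, a myosin (r = 0.991), and SYNDIG1, a synaptic membrane protein (r = 0.989). All 3 were low, with U87 aggregation means of 1.63, 2.76 and 2.44 TPM and no more than 0.36 TPM on average in any other group. For NMU these were UBE2C, a ubiquitin-conjugating enzyme of mitosis (r = 0.983), USP19, a deubiquitinase (r = 0.976), and UCKL1, a uridine kinase relative (r = 0.974). UBE2C averaged 789 TPM in U87 control, 315 in U87 aggregation, 549 in U118 control and 328 in U118 aggregation libraries, so that its levels differed far less than those of NMU.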

How the data were processed

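The authors deposited TPM per gene, 1 table for each cell line with 6 library columns, and no column was left unused. Per the submitters' processing notes, the tools were FastQC 0.11.2, Trimmomatic 0.36, HISAT2 2.0 and bedtools 2.26.0 with build GRCh38. The quantification tool, the annotation and the use of strand are not given in the sources used here. Of 58174 identifiers, 57392 had a symbol and 57836 are in GENCODE release 29.

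Groups and replicate numbers came from the labels. Values were fitted as log2(TPM + 1) with limma 3.58.1 in R 4.3.3 (eBayes with trend) within each line, over genes at 1 TPM or more in at least 3 of 6 libraries. The difference between lines was an interaction over all 12 libraries, which compares differences formed within each table. An exact test of 3 against 3 libraries cannot go below p = 0.1, so none was used. No pair of libraries held identical values. The fit was tested on simulated data.

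The 10 genes and the lists (prohormone processing, granule assembly and exocytosis, peptide precursors, neuromedin U receptors, transcription regulators, and 3 marker lists) were chosen with earlier results of these data known. Named companion genes are NMUR1, NMUR2, REST and, per list and line, up to 3 called genes with the largest difference whose groups did not overlap. For SCG2 and NMU the 3 most similar genes are named. Single marker genes were picked for naming once their values were known. Alternatives were other pseudocounts (0.1, 0.001), filters, scalings, no trend, no fold threshold, a replicate block and leaving out each library. TPM without mitochondrially encoded genes was chosen after seeing the data. pandas 2.3.3 and matplotlib 3.10.9 under Python 3.11.15 made tables and figures. Some marker genes are not reported here.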

Additional observations from a re-analysis of the deposited data

Results flagged for a closer look

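The difference between the lines (U118 minus U87, of the log2(TPM + 1) differences between aggregation and control cells) was tested for the named companion genes by an interaction term in limma over all 12 libraries, and 16 of them passed the threshold with a size of at least 1. REST, EIPR1 and ST18 did not, and NMUR1 and NMUR2 were below the filter. Most of these genes were named for a large difference within 1 line, so nothing is read from the count of 16. Of all 16382 genes tested, 30.5% passed for this difference between the lines. It was not tested for the 10 granule genes, which were chosen with both contrasts in view, and none of them moved one way in every library of a line and the opposite way in every library of the other. Groups of 3 libraries are too small for a search for single outlying libraries.

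Among the processing enzymes the difference was 4.71 for QPCT, 1.57 for QPCTL, 1.47 for RNPEP, -2.29 for CTSL and -5.42 for CPZ. Among granule genes it was 4.41 for PTPRN, 2.73 for CADPS, -1.97 for RAB27B and -6.52 for SYT7. Among peptide precursors it was 1.84 for NMB, 1.78 for PTHLH, 1.52 for PPY, -1.58 for QRFP and -2.84 for ADM. Among regulators it was 1.39 for CREB3L1 and -4.56 for NKX2-2. SYT7, CPZ and NKX2-2 were below the filter in U87 cells and QRFP was below it in U118 cells. The differences of these genes therefore come mainly from the change in the other line. QPCT was called lower in U87 and higher in U118 cells.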

How the results depend on the processing

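No called difference changed direction under any alternative run. Of the uncalled differences of the 10 genes, those of SCG5 in both lines and of PCSK1 in U118 cells changed sign under median-ratio scaling, and that of CPE in U87 cells without the first control library, and uncalled values of QPCTL, CADPS, RNPEP, EIPR1 and NMB also did. The calls of SCG2, VGF, CPE and NMU held in every alternative in which the gene was tested. With the second called gene being PCSK2, 2 of the 10 genes were higher in U87 cells under median-ratio scaling, pseudocounts of 0.1 and 0.001, TPM without mitochondrially encoded genes and no fold threshold. With a mean of at least 10 TPM required, NMU and CPE were no longer tested where they had been called, and 0 genes were called lower in U87 and 0 in U118 cells. With a pseudocount of 0.1 the difference of SCG2 in U87 was 7.01, of NMU -6.34 in U87 and -3.85 in U118, of VGF in U118 4.44 and of CPE in U118 -3.87.

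Of the companion genes, those called higher in U87 (4) became 8 under median-ratio scaling, 2 at a mean of 10 TPM and 11 without a fold threshold, and those called lower (4) became 7 and 7 with pseudocounts of 0.1 and 0.001 and 18 without a fold threshold. In U118 those called higher (11) became 4 at a mean of 10 TPM, and those called lower (12) became 7 at that mean, 6 under median-ratio scaling and 23 without a fold threshold. The call of REST in U118 was lost under median-ratio scaling (-0.94, adjusted p = 0.0197).

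Over all genes, those called in U87 (419 higher, 1078 lower) became 175 and 630 at a mean of 10 TPM, 659 and 543 under median-ratio scaling and 1306 and 4107 without a fold threshold. In U118 (1341 and 4134) they became 536 and 2152 at that mean and 2284 and 2025 under median-ratio scaling. Median-ratio scaling thus moved the share of calls that were higher in U87 from 28.0% to 54.8% (companion genes 50.0% to 66.7%) and in U118 from 24.5% to 53.0% (companion genes 47.8% to 70.0%). It moved the median difference of all genes to -0.02 and -0.05.

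Leaving out each library in turn gave, of the 10 genes, 1 to 2 higher and 1 lower for U87, then 1 higher and 2 lower for U118. It gave 3 to 6 companion genes higher and 4 to 5 lower in U87, and 9 to 13 higher and 8 to 18 lower in U118, where the 18 came without the first aggregation library. Over all genes it gave 404 to 482 higher and 941 to 1416 lower in U87, and 1228 to 1421 and 3388 to 5643 in U118. Without the first U118 aggregation library the differences were 3.80 for VGF, -2.18 for CPE and -1.80 for NMU.

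Whether the replicate numbers pair the samples cannot be settled from 3 libraries per group, and the main fits used no pairing. Deviations of same-numbered libraries correlated at 0.011, -0.067 and -0.04 in U87 and at 0.139, 0.051 and 0.095 in U118, where each library correlated best with its own number. With the replicate number as a block, the counts of the 10 genes stayed at 1 higher with 1 lower for U87 and at 1 higher with 2 lower for U118, and the call of RAB27B in U87 was lost (adjusted p = 0.0565), as it was without the filter (adjusted p = 0.0968). TPM keeps no read counts, so the error of low values such as those of SCG3, CHGA and CHGB could not be given.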
